A study of Mus musculus with 8 samples.

Results

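Motile cilium axoneme genes were followed in whole mouse lung. Genes were taken by symbol: every row of the count table whose symbol starts with Dnah, Dnaic, Dnaaf, Cfap, Tekt, Rsph or Drc, together with Foxj1, Ccdc39, Ccdc40, Tppp3, Tmem212 and Mlf1. The rule found 69 of the 15960 genes listed. It uses symbols alone, and it was chosen with earlier results of these data known. Lung RNA was sequenced in bulk from C57BL/6 mice aged 3 to 5 months, 4 libraries from Alb-Cre mice and 4 from mice that were Alb-Cre+ with Hif1_alpha fl/fl and Bmal1fl/fl, called BHLKO. The controls carry the same Cre driver without the floxed alleles named for BHLKO. For 2 weeks the animals of both groups were kept under a 12 h light, 12 h dark cycle and ate freely. On the day of collection the lights stayed off, and every library carries circadian time 16. The Alb promoter drives Cre in hepatocytes, so in this model BMAL1 and HIF1A are to be missing from liver cells, while the lung is an organ outside the targeted cells. The labels do not say that each library came from a separate animal, so the p-values reflect library-to-library spread only, which may be technical.

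A motile cilium is built on microtubule doublets that slide past each other. Outer and inner dynein arms pull on the neighbouring doublet, radial spokes and the nexin-dynein regulatory complex control the arms, and tektins and many Cfap proteins stiffen or line the doublets. Dynein arms are put together in the cytoplasm by assembly factors before they enter the cilium. In the lung these structures are made by multiciliated cells of the conducting airways, where they move mucus. FOXJ1, a forkhead transcription factor, switches on much of the set, together with RFX factors that bind the X-box, a motif of 2 mirrored half-sites. Several genes of the set also serve the sperm flagellum.

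The X-box was the sequence feature shared by some of the genes that the symbol rule had not used. RefSeq promoter windows (GRCm38.p6, from 250 bases before to 50 bases after each start) were at hand for 57 of the 69 genes. The full X-box was searched on both strands as GTTNCC and GNAAC with 3 free bases between them, and it occurred for 6 of the 57 genes (10.5%), against 253 of 27025 genes with a window (0.936%). The half-site GTTGCC, which can lie inside the full motif, occurred for 23 of 57 genes (40.4%) against 3821 of 27025 (14.1%). The forkhead core TGTTTAC occurred for 4 of 57 (7.02%) against 1095 of 27025 (4.05%). Each match is a match of letters only, not a binding site. The 6 stretches that hold the full motif follow, 30 bases each, read along the gene's own strand, with the 14 matched bases in capitals. In Cfap44, Cfap45, Dnaaf2 and Tekt4 the motif matched on the opposite strand alone.
Cfap44 (chr16:44394764-44394793, plus strand): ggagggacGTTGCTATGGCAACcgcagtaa
Cfap45 (chr1:172521103-172521132, plus strand): gttcttggGTTGCTATGGTAACgcgtcagc
Dnaaf2 (chr12:69198425-69198454, minus strand): tcccaggcGTTACTATGGCAACaaagcacg
Tekt4 (chr17:25471582-25471611, plus strand): tatacaatGTTCCTTAGGCAACcaggaacc
Cfap61 (chr2:145934768-145934797, plus strand): gccgcgtcGTTTCCTTAGCAACtgtgtgcg
Cfap298 (chr16:90935016-90935045, minus strand): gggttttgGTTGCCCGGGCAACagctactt

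The first base of the match lay within 27 bases before the RefSeq start in Cfap44, Cfap45, Dnaaf2 and Cfap61. It lay at that start itself in Tekt4, and 188 bases before it in Cfap298. Gene spans of GENCODE release M21, used for positions below, differ from these starts. By those spans the matched bases of Cfap45, Cfap298 and Tekt4 lie inside the gene, and those of Cfap61 in part. None of these 6 genes passed the test between genotypes described next, and their log2 fold changes ran from −0.36 in Cfap61 to 0.22 in Cfap298.

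Total counts per library ran from 6838427 to 15430372. The 69 genes took 0.164% to 0.231% of them. Levels are given as CPM, counts scaled to 1e+06 per TMM-adjusted library, and the genotypes were compared with edgeR's quasi-likelihood test over all genes. Neither targeted gene differed detectably in lung: Arntl, the gene of BMAL1, had 6.02, 5.93, 8.58 and 5.63 CPM in Alb-Cre replicates 1, 2, 4 and 5 and 5.62, 7.57, 6.07 and 11.1 CPM in BHLKO replicates 2, 3, 4 and 5 (exact two-sided permutation p = 0.571). Hif1a had 10.2 to 14.6 and 12.2 to 14.8 CPM (exact two-sided permutation p = 0.543). Counts over whole genes in an organ the driver does not target do not check the genotype labels. Scgb1a1, the secretory protein that defines club cells, stood at 32536 to 49193 CPM in all 8 libraries. Krt5, a keratin of basal and squamous epithelium, was at 20.2 CPM in Alb-Cre replicate 4 and at 0 to 2.78 CPM in the other 7 libraries.

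The motile cilium genes differed little between BHLKO and Alb-Cre lung. Of 63 genes that passed the filter on low counts, 1, Tekt5, fell in BHLKO, 0 rose, and 62 did not pass at an adjusted p under 0.05. That is 1.59% of the set, and over all 13517 tested genes 2.26% were called, 1.23% lower and 1.04% higher in BHLKO. At an unadjusted p under 0.05 there were 7 of 63 (11.1%) against 16.1% of all tested genes. Of the 7, 5 were lower and 2 higher in BHLKO, where 8.18% and 7.95% of all tested genes were. The median log2 fold change of the set was −0.07, beside −0.00 over all tested genes, with 39 of 63 genes below 0 (61.9% against 50.3%). The single fold changes ran from −0.85 (Tekt5) to 1.11 (Ccdc39). Values of the 2 groups did not overlap in 2 genes, Tekt5 and Dnah8, both lower in BHLKO (3.17%, where 9.62% of all tested genes had such values, 4.99% lower and 4.63% higher in BHLKO).

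The precision bounds what could have been seen. For 46 of 63 genes (73%) the 95% interval of the fold change lay within a 2-fold change in either direction, and for 21 (33.3%) within a 1.5-fold change. Over all tested genes these shares were 76.1% and 52.1%. The median SE was 0.22 in the set and 0.17 over all tested genes, on the log2 scale. In bulk tissue, fewer ciliated cells and less RNA per cell cannot be told apart.

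**Figure D1:**
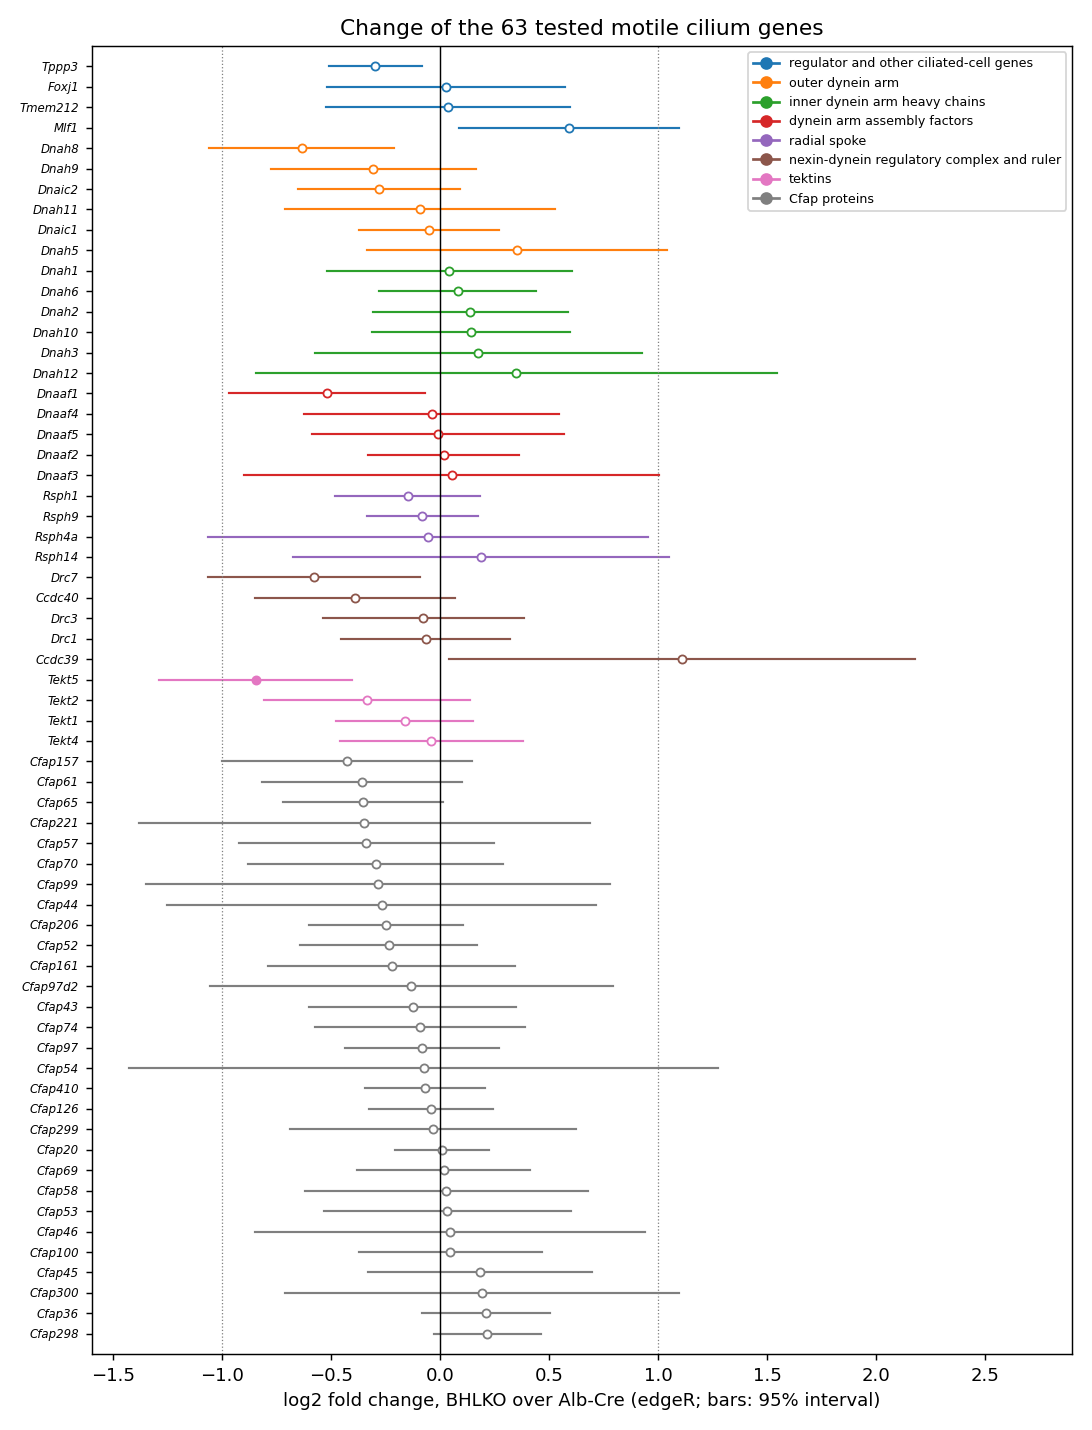
Log2 fold change of BHLKO over Alb-Cre for the 63 tested motile cilium genes, coloured by role group; points are edgeR estimates, bars 95% intervals, dotted lines a 2-fold change, and a filled point marks an adjusted p under 0.05. The only filled point is Tekt5 at −0.85, and the 6 inner dynein arm chains all lie between 0.04 and 0.35.

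The regulator gene did not pass the test. Foxj1 (chromosome 11, 116330704 to 116335399) was at 129.98, 142, 195 and 170 CPM in Alb-Cre replicates 1, 2, 4 and 5 and at 107, 205, 132 and 205 CPM in BHLKO replicates 2, 3, 4 and 5. The BHLKO libraries split into a pair near 205 and a pair near the lowest Alb-Cre values, and their range contains the Alb-Cre range. The log2 fold change was 0.02 ± 0.24 (SE; 95% interval −0.52 to 0.57; edgeR adjusted p = 0.975). Tmem212, a membrane protein gene used as a marker of ciliated cells, was lowest in BHLKO replicate 2, as Foxj1 was, with 35.3, 74.9, 49.5 and 62.2 CPM beside 38.1, 53.2, 67.4 and 58.1 CPM in Alb-Cre (log2 0.03 ± 0.25). The signs of Foxj1 and Tmem212 turned on leaving out single libraries, with ranges of −0.11 to 0.18 and −0.14 to 0.20.

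Tppp3, a tubulin polymerization promoting protein, was by far the most abundant gene of the set and held 48.5% to 57% of its CPM. Alb-Cre libraries held 1214, 1271, 1100.5 and 1274 CPM and BHLKO libraries 823, 1119, 942 and 1069.5 CPM, in the order above. BHLKO replicate 3 lies above the lowest Alb-Cre library, and the other 3 lie below all of them. That lowest control, Alb-Cre replicate 4, was the highest control in Foxj1 and Tmem212, while BHLKO replicate 2 was lowest in BHLKO in each of these genes. The log2 fold change of Tppp3 was −0.30 ± 0.10 (95% interval −0.51 to −0.08), and it did not pass over all genes (edgeR adjusted p = 0.149). Mlf1, myeloid leukaemia factor 1, which ciliated cells also express, had 6.02, 10.1, 10.9 and 12.1 CPM in Alb-Cre and 12.6, 19.4, 10.3 and 16.6 CPM in BHLKO. Its log2 fold change was 0.59 ± 0.24 (edgeR adjusted p = 0.226), with BHLKO replicate 4 inside the Alb-Cre range. Mlf1 carries both the half-site and the forkhead core before its start, shown in capitals, the forkhead core first, in the 250 bases at chr3:67373847-67374096 (GRCm38.p6, plus strand).
Mlf1: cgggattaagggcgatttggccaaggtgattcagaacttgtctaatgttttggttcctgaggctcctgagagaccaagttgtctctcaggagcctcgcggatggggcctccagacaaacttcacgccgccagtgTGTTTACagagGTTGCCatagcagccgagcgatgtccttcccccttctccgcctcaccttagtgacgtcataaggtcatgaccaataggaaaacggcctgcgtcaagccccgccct

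**Figure D2:**
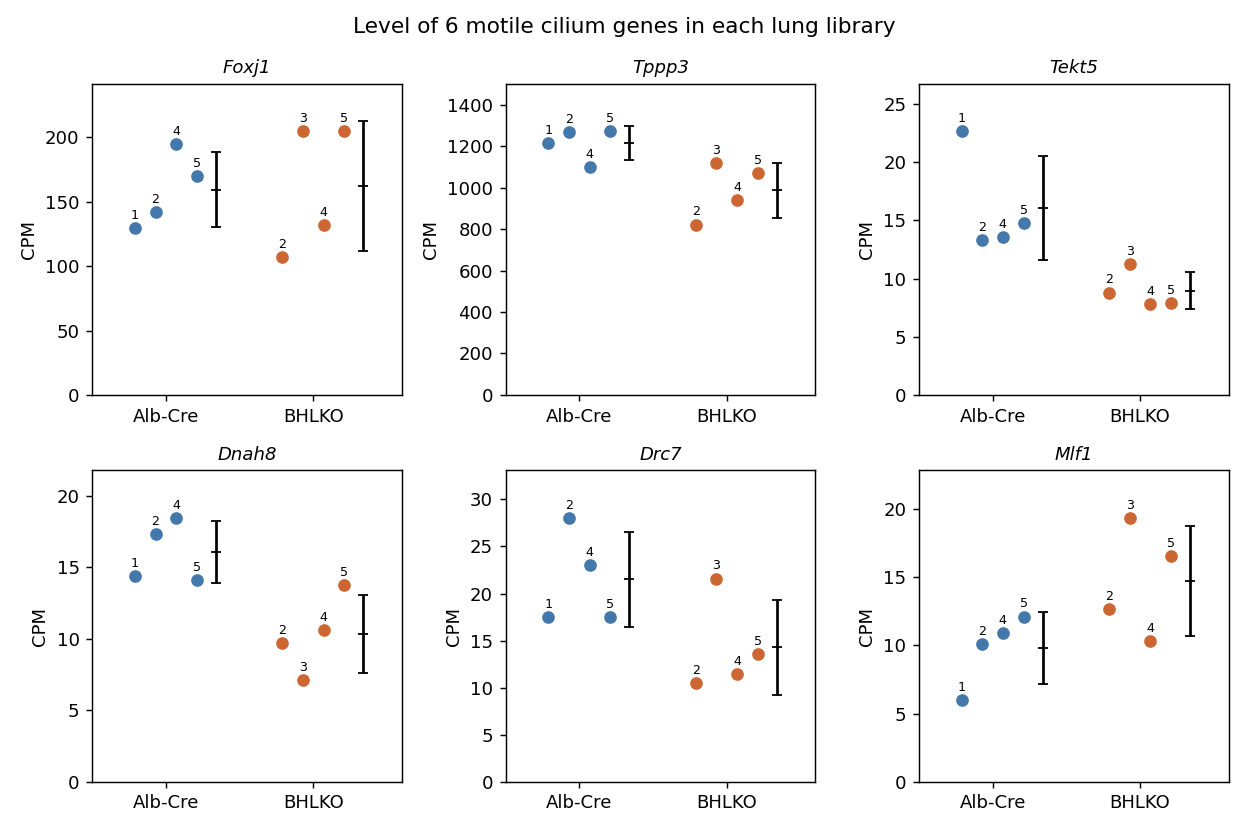
CPM of 6 motile cilium genes in each library, on axes that start at 0; points are libraries with their replicate numbers, and the black bar is the mean ± SD (n = 4 per group). Tekt5 and Dnah8 do not overlap between groups, while Foxj1 spans 129.98 to 195 CPM in Alb-Cre and 107 to 205 CPM in BHLKO.

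Tektins are filament proteins inside the doublet wall. Tekt5 (chromosome 16, 10357948 to 10395490), best known from sperm flagella, was the single called gene. Alb-Cre replicates 1, 2, 4 and 5 held 22.7, 13.3, 13.6 and 14.8 CPM and BHLKO replicates 2, 3, 4 and 5 held 8.80, 11.3, 7.82 and 7.91 CPM. Every BHLKO library lies below every Alb-Cre library, and Alb-Cre replicate 1 stands well above the others. Tekt5 fell 1.80-fold (log2 −0.85 ± 0.21; edgeR adjusted p = 0.0428). Leaving out Alb-Cre replicate 1, 2 or 4 ended the call, as did leaving out BHLKO replicate 2, 4 or 5, limma-voom and a fit without robust dispersion. The log2 fold change was −0.63 without Alb-Cre replicate 1 and between −0.92 and −0.79 in the other 7 of these fits. Nor was Tekt5 called in the libraries whose replicate numbers occur in both genotypes, with or without the replicate number as a block. The other tested tektins, all below 0, did not pass. Tekt1 had 29.7 to 38.6 CPM in Alb-Cre and 24.5 to 38.5 in BHLKO (log2 −0.16 ± 0.15), Tekt2 7.42 to 12.9 and 7.31 to 8.80 (−0.34 ± 0.22), and Tekt4 11.9 to 19.5 and 12.1 to 20 (−0.04 ± 0.20). Tekt3 was under the filter with 49 counts over the 8 libraries. None of the 3 motifs was found in the RefSeq window of Tekt5; its bases before the gene are shown because it carries the only call. The 215 bases lie at chr16:10395491-10395705 (GRCm38.p6, minus strand), and this says only that the letters searched are not in the window.
Tekt5: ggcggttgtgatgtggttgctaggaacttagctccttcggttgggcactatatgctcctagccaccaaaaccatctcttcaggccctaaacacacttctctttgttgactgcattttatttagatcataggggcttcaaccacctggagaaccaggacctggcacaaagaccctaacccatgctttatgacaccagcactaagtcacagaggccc

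Outer dynein arms give most of the beating force. Of their 6 tested genes 0 passed (5 below 0, median −0.19). Dnah8 (chromosome 17, 30624354 to 30877365), a heavy chain known chiefly from sperm, had 14.4, 17.3, 18.4 and 14.1 CPM in Alb-Cre and 9.70, 7.14, 10.6 and 13.8 CPM in BHLKO. The groups do not overlap, though BHLKO replicate 5 lies just below the lowest control (log2 −0.64 ± 0.20; edgeR adjusted p = 0.116). Dnah8 shares 207 exon bases with 1700097N02Rik on the opposite strand, which had 63 counts over the 8 libraries. Dnah9, the heavy chain of the outer part of airway cilia, was at 11 ± 2.73 and 8.86 ± 1.45 CPM (SD, n = 4 each; log2 −0.31 ± 0.22). In Dnah9 the low control is Alb-Cre replicate 1, at 6.92 CPM against 12.3 to 12.4 CPM in the other 3. The intermediate chains that anchor the arm had 15.3 to 19.4 and 14.3 to 19.6 CPM in Dnaic1 (log2 −0.05 ± 0.15) and 16.6 to 23.1 and 12.0 to 18.9 CPM in Dnaic2 (−0.28 ± 0.18). Dnah5 and Dnah11, whose human forms are mutated in primary ciliary dyskinesia, had log2 fold changes of 0.35 ± 0.32 and −0.09 ± 0.29.

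Inner dynein arms shape the bend of the cilium. All 6 tested heavy chains lay above 0 (median 0.14) and 0 passed. Dnah6 had 13.4 to 18.5 CPM in Alb-Cre and 14.8 to 21.8 in BHLKO (log2 0.08 ± 0.17). Dnah2 and Dnah10, which together form a 2-headed inner arm, had log2 fold changes of 0.14 ± 0.21 each, and Dnah1 0.04 ± 0.27. BHLKO replicate 3 held the highest value of all 8 libraries in Dnah1, Dnah2, Dnah3, Dnah6, Dnah10 and Dnah12. Without it Dnah1, Dnah2 and Dnah6 turned to −0.11, −0.0273 and −0.0681, while Dnah10 was at 0.027. Dnah1 also turned without Alb-Cre replicate 1 (−0.0304) and without BHLKO replicate 5 (−0.0541), and Dnah10 came to 0 without Alb-Cre replicate 2. Values without single libraries are not given for Dnah3 and Dnah12. Dnah7a, Dnah7b and Dnah7c, close copies of each other, had 26, 45 and 34 counts over the 8 libraries and were not tested, and how multiply matching reads were counted is not given in the sources used here.

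Dynein arm assembly factors act in the cytoplasm. Of 5 tested, 0 passed (median −0.01). Dnaaf1 (chromosome 8, 119575235 to 119598454), an assembly factor with leucine-rich repeats, had 8.33, 13.6, 14.4 and 15.9 CPM in Alb-Cre and 8.31, 10.8, 8.75 and 8.42 CPM in BHLKO. Alb-Cre replicate 1 lies at the BHLKO level and the other 3 controls lie above it (log2 −0.52 ± 0.21; edgeR adjusted p = 0.228). It shares 584 exon bases with Taf1c on the opposite strand, whose log2 fold change was 0.09 ± 0.17. Dnaaf2 was among the steadiest genes of the set, at 10.5 to 11.7 CPM in Alb-Cre and 10.9 to 12.0 in BHLKO (log2 0.01 ± 0.16). Dnaaf2 lies 4.7 Mb from Hif1a on chromosome 12. Dnaaf4 and Dnaaf5 were at 3.85 ± 0.587 and 4.45 ± 0.925 CPM in Alb-Cre and at 3.73 ± 0.211 and 4.44 ± 0.825 CPM in BHLKO.

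Radial spokes reach from the doublets towards the central pair. Of 4 tested genes 0 passed (median −0.07). The spoke head genes Rsph1 and Rsph9 had 23.9 to 36.4 and 32.0 to 40.1 CPM in Alb-Cre and 23.0 to 33.2 and 30.5 to 38.4 CPM in BHLKO, with log2 fold changes of −0.15 ± 0.16 and −0.08 ± 0.12. Rsph4a, the spoke head protein of airway cilia, was low and uneven: 0.815 CPM in BHLKO replicate 2 and 6.02 CPM in BHLKO replicate 3 (log2 −0.06 ± 0.47). Rsph14 had 1.01 to 4.24 and 2.04 to 4.89 CPM. Rsph6a, the paralog of Rsph4a in sperm, had 7 counts in BHLKO replicate 3 and 0 counts in the other 7 libraries.

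The nexin-dynein regulatory complex links neighbouring doublets, and CCDC39 with CCDC40 forms the ruler that sets where arms and spokes dock. Of 5 tested genes 0 passed (median −0.08). Drc7 (chromosome 8, 95055103 to 95078141) had 17.5, 28.0, 23.0 and 17.6 CPM in Alb-Cre and 10.5, 21.6, 11.4 and 13.5 CPM in BHLKO. Only BHLKO replicate 3 overlaps the controls (log2 −0.58 ± 0.23; edgeR adjusted p = 0.216), and without it the log2 fold change was −0.85 (edgeR adjusted p = 0.0354). Drc1 and Drc3 were at −0.07 ± 0.18 and −0.08 ± 0.22. The partners of the ruler lay on opposite sides of 0. Ccdc40 had 23.1, 16.6, 31.9 and 21.2 CPM in Alb-Cre and 17.3, 23.5, 11.9 and 18.3 CPM in BHLKO (log2 −0.39 ± 0.21; edgeR adjusted p = 0.4). Ccdc39 had 2.38, 1.16, 1.2 and 0.728 CPM in Alb-Cre and 2.36, 4.39, 0.927 and 4.17 CPM in BHLKO (log2 1.11 ± 0.50; edgeR adjusted p = 0.287). The large value of Ccdc39 comes from BHLKO replicates 3 and 5, while replicates 2 and 4 lie inside the control range. It rests on 203 counts over the 8 libraries, and the gene shares 1256 exon bases with Ttc14 on the opposite strand. Ttc14 was at 1.93 ± 0.751 and 2.42 ± 0.453 CPM (log2 0.31 ± 0.39).

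Cfap genes, named for cilia and flagella associated proteins, formed the largest group. Of 29 tested, 0 passed, with 19 below 0, a median of −0.08 and a range of −0.43 to 0.22. The 3 with the most reads were Cfap298, Cfap20 and Cfap126. Cfap298, needed for dynein arm assembly, had 53.0 to 62.0 CPM in Alb-Cre and 55.8 to 81.4 CPM in BHLKO (log2 0.22 ± 0.12; edgeR adjusted p = 0.378). Cfap20, which closes the inner junction of the doublet, had 54.0 to 59.1 and 48.9 to 62.1 CPM (log2 0.01 ± 0.10; 95% interval −0.21 to 0.22). That interval lies within a 1.5-fold change on both sides. Cfap126, also called Flattop, was at 35.2 ± 5.38 and 34 ± 4.19 CPM, and Cfap65, a protein of the sperm flagellum and of cilia, at 33.3 ± 6.25 and 26.1 ± 6.68 CPM (log2 −0.35 ± 0.17; edgeR adjusted p = 0.332). Cfap77 had 21 counts over the 8 libraries and was not tested.

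Levels between genes were compared per kilobase of exon (FPKM, from GENCODE release M21 exon lengths, which need not be those the authors counted over). In Alb-Cre lung Tppp3 stood at 657 ± 43.9 FPKM (SD, n = 4), Tmem212 at 75.7 ± 17.1 and Foxj1 at 60.7 ± 11.1. The genes were measured in the same libraries, so these SDs between libraries do not measure differences between genes, which were not tested. Cfap298 followed at 36.7 ± 2.45 FPKM, ahead of Rsph9 (23.0 ± 2.17), Rsph1 (21.3 ± 3.87), Tekt1 (21 ± 2.44) and Cfap126 (19.8 ± 3.03). Tekt5 was at 8.90 ± 2.46 FPKM in Alb-Cre and 4.95 ± 0.890 FPKM in BHLKO. The heavy chains, whose transcripts are very long, were lower: Dnah6 at 1.2 ± 0.159, Dnah9 at 0.690 ± 0.171, Dnah5 at 0.252 ± 0.0974 and Dnah12 at 0.0670 ± 0.0330 FPKM in Alb-Cre. The ruler partners were unequal, with Ccdc40 at 3.85 ± 1.06 and Ccdc39 at 0.184 ± 0.0951 FPKM.

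The clearest pattern in the set was between libraries rather than between genotypes. BHLKO replicate 3 held the highest BHLKO value in 35 of the 63 tested genes and BHLKO replicate 4 the lowest in 32. Among controls, Alb-Cre replicate 4 was highest in 31 genes and Alb-Cre replicate 1 lowest in 25. These counts were not made over all tested genes, so they do not show whether the pattern is particular to the set. The per-library median of the set, as log2 difference from each gene's mean over the 8 libraries, was −0.08, −0.00, 0.24 and 0.09 in Alb-Cre replicates 1, 2, 4 and 5. In BHLKO replicates 2, 3, 4 and 5 it was −0.145, 0.24, −0.24 and 0.07. The highest library of each genotype thus stood at the same level, and the genotypes overlap. The median SD between libraries on the log2 scale was 0.30 in Alb-Cre and 0.33 in BHLKO for the set, against 0.21 in each for all tested genes. Expression level was not matched in this comparison, and the part of low counts in the wider SD was not tested. The genes of the set share libraries, so the counts over genes are not independent observations.

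**Figure D3:**
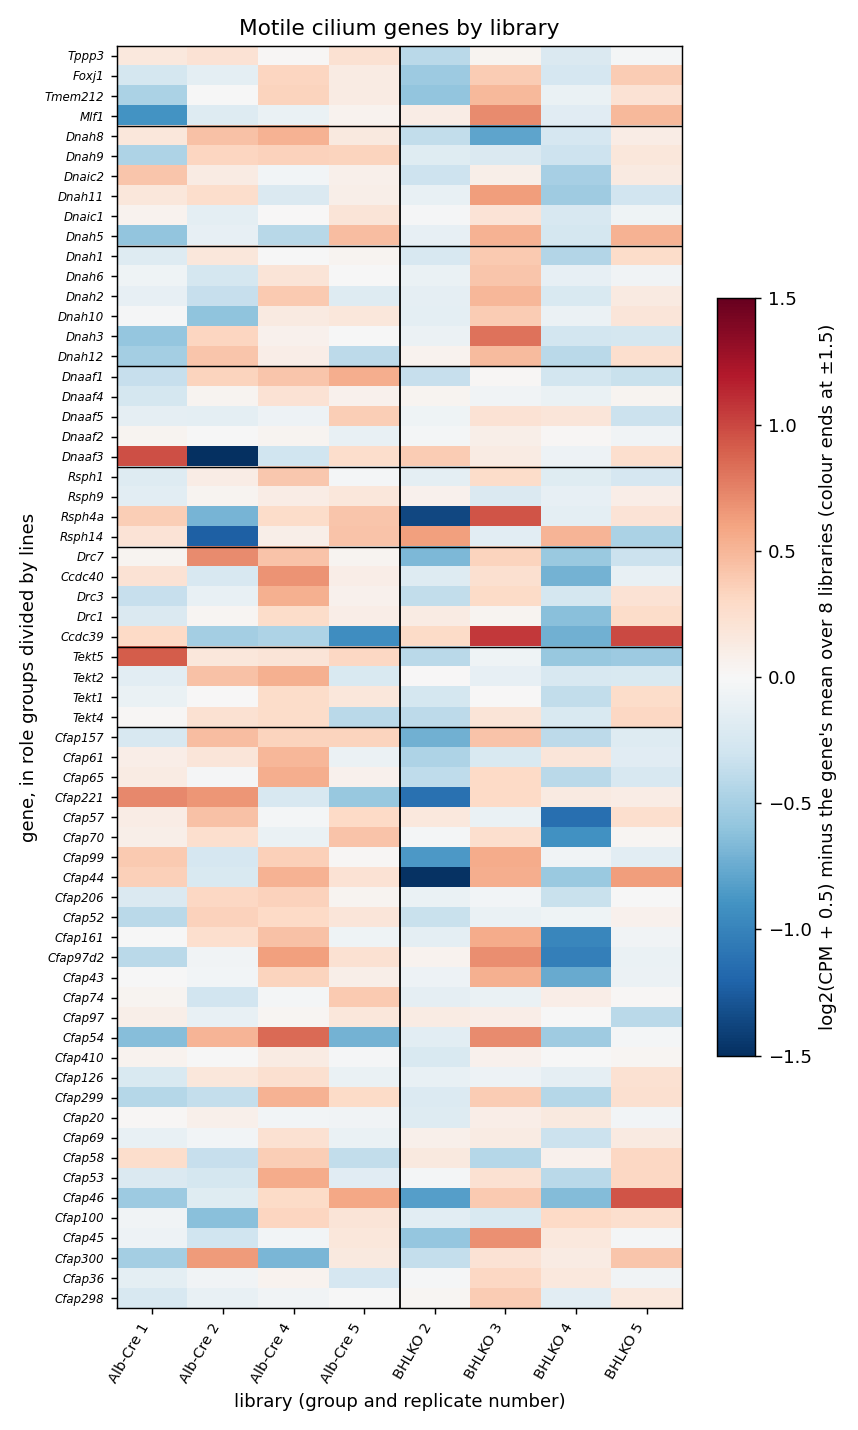
Level of the 63 tested genes in each library as log2(CPM + 0.5) minus the gene's mean over the 8 libraries, with role groups divided by lines and the genotypes by the vertical line. The columns of Alb-Cre replicate 4 and BHLKO replicate 3 are mostly red (medians 0.24 each) and that of BHLKO replicate 4 mostly blue (median −0.24).

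Summaries of the set moved when single libraries were left out. Leaving out a group's highest or lowest library shifts a summary in a direction fixed in advance, so these values do not test the pattern above. The median log2 fold change of the set was −0.13 without BHLKO replicate 3, where 51 of 63 genes lay below 0, and −0.00 without BHLKO replicate 4, where 32 did. Without Alb-Cre replicate 4 it was −0.02. Summed over the 69 genes, the level was 2131, 2262, 2269 and 2314 CPM in Alb-Cre and 1661, 2287, 1795 and 2146 CPM in BHLKO, and the groups overlap. Without Tppp3 the sums were 1029 ± 106 and 984 ± 164 CPM (SD, n = 4 each), against 2244 ± 78.7 and 1972 ± 293 CPM with it. Much of the gap between the summed means therefore lies in Tppp3.

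Other genes of cilia and airway gave the setting. Of 56 further tested genes of motile cilia, 1 fell, 0 rose and 55 did not pass (median log2 fold change −0.03, 29 below 0). The called gene was Spag8, a sperm-associated antigen of the doublet lining, which fell 1.81-fold from 11 ± 1.93 to 6.05 ± 1.11 CPM (edgeR adjusted p = 0.0495). That value lies just under the threshold, and values of Spag8 in other settings or without single libraries are not given. The library medians of the 56 genes followed those of the set: −0.19, 0.00, 0.22 and 0.07 in Alb-Cre and −0.18, 0.28, −0.27 and 0.16 in BHLKO. Of 14 tested genes of the multiciliated cell programme, among them the X-box binding factors Rfx2 (26.2 ± 2.32 and 23.2 ± 1.70 CPM) and Rfx3 (2.95 ± 0.986 and 3.31 ± 0.473 CPM), 0 passed (median −0.08). In 2 of the 14 the groups did not overlap, both lower in BHLKO (14.3%, against 9.62% of all tested genes, 4.99% lower). The library medians of this list were 0.02, −0.00, 0.11 and 0.08 in Alb-Cre and −0.00, −0.02, −0.05 and 0.07 in BHLKO. BHLKO replicates 3 and 4 thus did not stand apart here as they did in the set. Of 25 tested genes of intraflagellar transport, which builds primary and motile cilia alike, 0 passed (median −0.03). Their library medians stayed between −0.10 and 0.10.

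Markers of other airway cells also differed between libraries, in part in the same ones. The median of 14 tested club and secretory cell genes was −0.04, −0.06, 0.34 and 0.12 in Alb-Cre and −0.24, 0.09, −0.22 and 0.32 in BHLKO, so that Alb-Cre replicate 4 was high and BHLKO replicates 2 and 4 were low for both lists. The lists differed in which BHLKO library was highest, replicate 5 for the club and secretory genes and replicate 3 for the cilium genes. Summed, the 15 listed club and secretory genes ran from 59413 to 81354 CPM in Alb-Cre and from 56452 to 73868 CPM in BHLKO. Of the 14 tested, 1 rose, Aldh1a1, a retinaldehyde-oxidizing enzyme, from 831 to 1212 CPM (edgeR adjusted p = 0.0152), and 13 did not pass. That is 7.14% called, against 2.26% of all tested genes. Most of the list went the other way from Aldh1a1, with 9 of 14 below 0 and 5 above. The median log2 fold change was −0.25 and the range −2.34 to 0.66. The 9 alveolar type 2 genes had medians between −0.14 and 0.12, with Alb-Cre replicate 4 lowest. Among alveolar markers Sftpd, a surfactant protein gene of type 2 cells, rose (log2 0.43 ± 0.09; edgeR adjusted p = 0.0194) and the other 8 did not pass. Of 8 type 1 genes Pdpn and Rtkn2 rose, Akap5 fell and 5 did not pass. Called were thus 37.5% of the type 1 genes, against 2.26% of all tested genes. Akap5 lies 2.38 Mb from Hif1a on chromosome 12, and the part of this position in its value was not tested. Of 5 mesothelial genes 0 passed. The 7 basal and squamous genes summed to 120 CPM in Alb-Cre replicate 4 and to 5.76 to 29.7 CPM in the other 7 libraries, with BHLKO replicate 3, where the cilium genes were high, lowest. Without Alb-Cre replicate 4 the set's median was the −0.02 given above. The share of each library taken by airway was not measured, and its part in these values was not tested. Of the 14 germ cell genes checked because sperm share axonemal genes, 4 were listed and 1, Acr, was tested (2.34 ± 0.833 and 1.71 ± 0.679 CPM), while the protamine genes Prm1 and Prm2 were among those not listed.

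**Figure D4:**
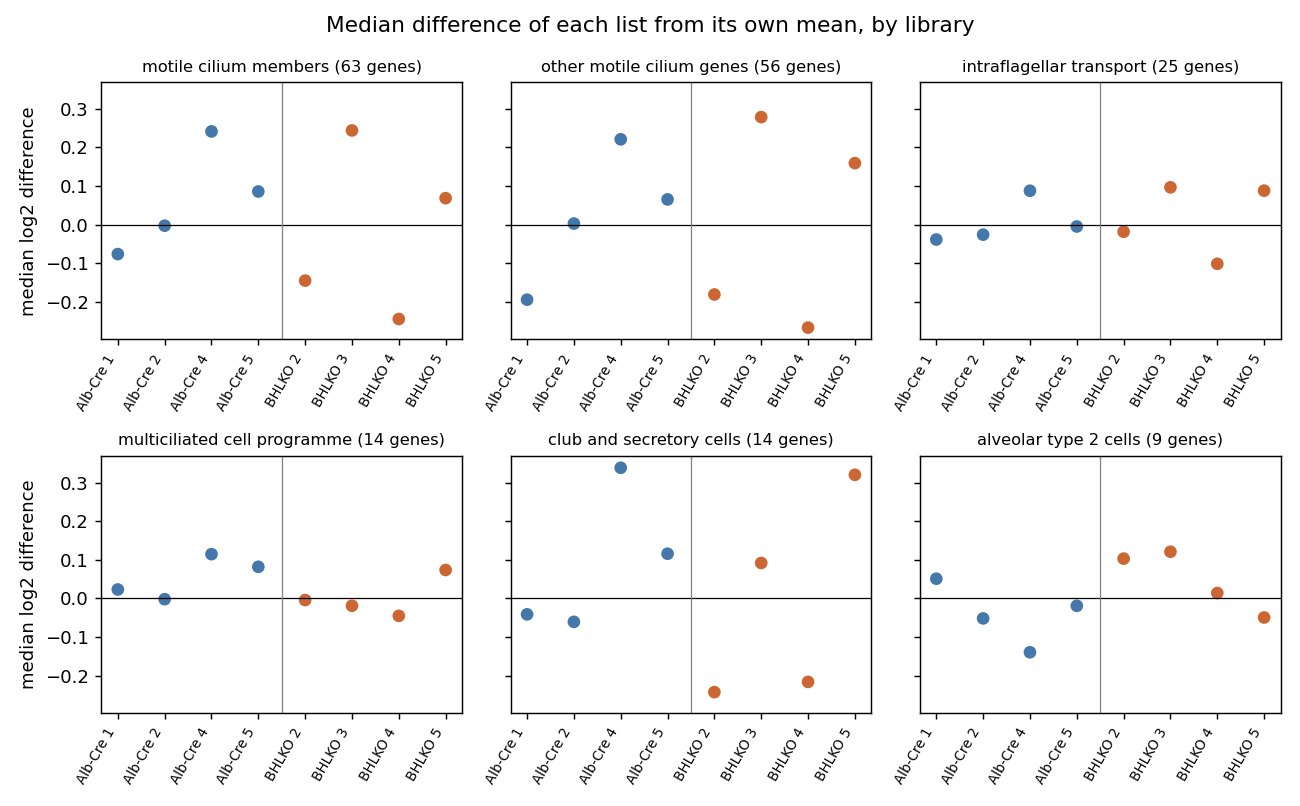
Median log2 difference of each gene list from its own mean over the 8 libraries, 1 point per library, blue for Alb-Cre and orange for BHLKO. The motile cilium set and the other motile cilium genes share the order of the libraries within BHLKO, from BHLKO replicate 4 (−0.24 and −0.27) to BHLKO replicate 3 (0.24 and 0.28), while intraflagellar transport genes stay within −0.10 to 0.10.

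The 69 genes lie on 18 chromosomes, by GENCODE release M21 on mm10. Of these, 7 are on chromosome 7 or 12, which carry the targeted genes, and 2 lie within 20 Mb of one of them: Dnah3, 6.61 Mb from Arntl (log2 0.17 ± 0.35), and Dnaaf2. Neither passed the test. Of the 69 genes, 14 share exon bases with another listed gene, 12 of them on the opposite strand. Whether the counting used strand is not given in the sources used here, so reads of such pairs may be mixed.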

How the data were processed

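The table deposited by the authors holds whole-number read counts for 15960 gene symbols and 8 libraries and, per the file headers, a normalized signal. The normalized signal deposited by the authors equals the counts divided by 1 constant per library, and was used only for that check. Build mm10 and the programs HTSeq, DESeq2, STAR 2.5.2b and cutadapt are listed, per the submitters' processing notes; the sources used here state no roles, annotation or strandedness. Each listed gene reached at least 6 counts in some library. The members, lists and tests were chosen with earlier results of these data known.

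Counts were tested with edgeR 4.0.16 (R 4.3.3): TMM scaling, filterByExpr, robust quasi-likelihood F test, Benjamini-Hochberg adjustment over 13517 genes, calls under 0.05. Each SE is the size of the fold change over the root of F, and 95% intervals from the t quantile at the test's degrees of freedom. Named genes are the 6 single symbols, every called member, and per role group up to 4 members with the highest mean CPM and the 1 with the smallest p. Of other lists the called genes, Scgb1a1 and Krt5 are named. Other genes named, among them Dnah3, Dnah5, Dnah11, Dnah12, Cfap44, Cfap45, Cfap61, Rfx2, Rfx3, Acr, genes that overlap a member and the untested members, were chosen after their values were seen. Alternatives were other scalings, filters and tests (DESeq2 1.42.0, limma-voom from limma 3.58.1), leaving out each library, and replicate numbers as a block.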

Additional observations from a re-analysis of the deposited data

Results flagged for a closer look

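In 6 of 66 groups of 4 libraries (33 named genes, 2 genotypes) 1 library stood apart from the other 3 by Dixon's ratio at its 95% critical value, and chance flags about 1 in 20 groups. Tekt5 was at 22.7 CPM in Alb-Cre replicate 1 and at 13.3 to 14.8 CPM in the other controls. Dnah9 was at 6.92 CPM in the same library, against 12.3 to 12.4 CPM. Dnaaf5 was at 5.83 CPM in Alb-Cre replicate 5, against 3.90 to 4.12 CPM. In BHLKO replicate 3, Dnah6 was at 21.8 CPM and Rsph1 at 33.2 CPM, against 14.8 to 15.6 and 23.0 to 24.7 CPM in the other BHLKO libraries. Cfap126 was at 40.2 CPM in BHLKO replicate 5, against 31.3 to 32.6 CPM.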

How the results depend on the processing

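Genes called over the whole table numbered 306, against 692 by the DESeq2 Wald test and 131 to 520 when 1 library was left out (131 without Alb-Cre replicate 1, 520 without Alb-Cre replicate 5). Of the motile cilium set 1 was called, against 0 in limma-voom (5 at an unadjusted p under 0.05), 0 without robust dispersion (7), 1 in DESeq2 and 0 to 2 when 1 library was left out. Tekt5 kept its direction in all 17 alternatives, with adjusted p from 0.00947 (DESeq2) to 0.179 (edgeR without Alb-Cre replicate 1). The set's median stayed between −0.13 and −0.00 when 1 library was left out. The cause of these shifts was not tested.

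Replicate numbers 2, 4 and 5 occur in both genotypes, and what they mark is not given in the sources used here. Deviations of same-numbered libraries had r over genes of 0.0373, −0.016 and 0.0209. Pairs with unlike numbers had r from −0.1373 to 0.1026. Such values cannot settle whether same-numbered libraries share a litter or day. With the replicate block on those 6 libraries 154 genes were called, 0 of them in the set (8 at an unadjusted p under 0.05), and the set's median was −0.23. Without the block the same libraries gave 168 calls, 1 in the set (Drc7), and a median of −0.24. Signs turned in that block for Cfap20 (−0.0219), Dnah1 (−0.21), Dnah2 (−0.0257), Dnah6 (−0.0717), Foxj1 (−0.23) and Tmem212 (−0.31), and in the same libraries with no block (−0.0178, −0.18, −0.0596, −0.0854, −0.19 and −0.28). With library size alone Cfap20 was at −2e-04, and in limma-voom Foxj1 was at −0.0152.

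Of 264 values with 1 library left out, 41 turned sign or came to 0, and 16 of the 33 named genes turned in no setting run. The log2 ranges of those that turned were −0.13 to 0.0362 in Cfap126, −0.0404 to 0.0738 in Cfap20, −0.0196 to 0.035 in Dnaaf2, −0.14 to 0.0409 in Dnaaf4, −0.0923 to 0.15 in Dnaaf5, −0.11 to 0.18 in Dnah1 and 0.00 to 0.22 in Dnah10. They were −0.0273 to 0.32 in Dnah2, −0.0681 to 0.16 in Dnah6, −0.13 to 0.0135 in Dnaic1, −0.18 to 0.0911 in Drc1, −0.20 to 0.12 in Drc3, −0.11 to 0.18 in Foxj1 and −0.0688 to 0.39 in Rsph14. In Rsph4a, Tekt4 and Tmem212 they were −0.56 to 0.27, −0.18 to 0.0748 and −0.14 to 0.20. Depth limits the low genes most, and intervals cover the spread between 4 libraries a group.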

Other observations

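Among the 56 tested cilium genes outside the set, 4 had group values that did not overlap (7.14%, where 9.62% of all tested genes had such values). Besides Spag8 these were Ttc25 and Tctex1d4, lower in BHLKO, and Lrrc6, higher in BHLKO, all named after their values were seen. Ttc25 encodes a docking protein of the outer dynein arm and had 5.13 to 8.41 CPM in Alb-Cre and 2.72 to 4.99 CPM in BHLKO (edgeR adjusted p = 0.275). Lrrc6 encodes a dynein arm assembly factor and had 0.434 to 2.12 and 2.20 to 4.68 CPM (log2 1.14 ± 0.45; edgeR adjusted p = 0.219). Tctex1d4 had 26.2 to 37.4 and 15.6 to 26.1 CPM (edgeR adjusted p = 0.191). None of these 3 passed the test.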
